A study of Mus musculus with 35 samples.

Results

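The set described here is the RNA of 10 genes that encode the UPF factors and the exon junction complex (EJC): Upf1, Upf2, Upf3a, Upf3b, Eif4a3, Magoh, Magohb, Rbm8a, Casc3 and Rnps1. They were taken by name, as a list drawn up with earlier results of these data known, from the 24411 gene rows of 3 deposited count tables, and all 10 passed the filter on low counts in every comparison. The tables hold mouse pachytene spermatocytes (Spc), haploid round spermatids (RS) and isolated chromatoid bodies (CB), the large RNA-rich granule of the round spermatid. Libraries came from mice lacking the endonuclease SMG6 in germ cells (cKO, Smg6(fx/fx);Ngn3Cre+) and from littermate controls (CTRL) without Cre, which were Smg6(fx/fx) or Smg6(fx/wt). All were adult males on a mixed C57Bl/6J and SV129 background, and the floxed part is exon 9 of Smg6. The Ngn3 promoter drives Cre in spermatogonia after birth, so that the somatic cells of the cKO testis kept Smg6. Spc and RS were enriched on BSA gradients, with 3 libraries of each genotype, and CB were captured with an antibody to DDX4 from pooled mice, with 3 cKO and 4 CTRL libraries. Each number after ± is a standard deviation over these libraries, and n is 3 for every group except CTRL CB, where n is 4.

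Nonsense-mediated decay (NMD) removes mRNAs on which translation ends too early. UPF1 is the RNA helicase at its centre, UPF2 binds and activates UPF1, and UPF3A or UPF3B joins UPF2 to the EJC, a complex left upstream of exon junctions after splicing. The EJC core consists of the RNA-clamping ATPase EIF4A3 with RBM8A and either MAGOH or MAGOHB, CASC3 (also called MLN51 or Barentsz) binds that core, and RNPS1 is a splicing factor that associates with it. SMG6 cuts the mRNAs marked in this way, and in male germ cells SMG6 is a component of the CB. UPF3B promotes NMD, whereas UPF3A has been described as a weaker activator or as an antagonist of it. Upf3b lies on the X chromosome, most of whose genes are silenced in pachytene spermatocytes. Whether that bears on its level here was not tested.

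The set holds 2 pairs of paralogs, and the counts of each pair can be told apart only where their sequences differ. Over 90 coding bases from the GENCODE vM21 models on GRCm38, Magoh (ENSMUST00000030348, coding bases 175 to 264) and Magohb (ENSMUST00000032307, coding bases 181 to 270) differed at 17 positions. The same length of Upf3a (ENSMUST00000043767, coding bases 368 to 457) and Upf3b (ENSMUST00000076265, coding bases 323 to 412) differed at 23. Capitals mark the differing bases, and each sequence runs from 5′ to 3′ on the coding strand.
Magoh: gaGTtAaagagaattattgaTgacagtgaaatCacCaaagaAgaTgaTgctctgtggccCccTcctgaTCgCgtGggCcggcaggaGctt
Magohb: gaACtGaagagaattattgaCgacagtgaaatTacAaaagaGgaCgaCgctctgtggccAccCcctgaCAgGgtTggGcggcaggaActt
Upf3a: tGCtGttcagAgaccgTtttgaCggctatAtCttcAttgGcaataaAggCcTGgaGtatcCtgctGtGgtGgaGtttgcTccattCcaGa
Upf3b: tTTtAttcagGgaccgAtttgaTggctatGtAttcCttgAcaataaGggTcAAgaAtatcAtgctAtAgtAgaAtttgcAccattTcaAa
Over the whole aligned coding sequence the bases were 81.3% identical between Magoh and Magohb and 60.2% between Upf3a and Upf3b, and the longest identical runs were 17 and 15 bases. No 75-base window, the length of 1 read in Spc and RS, was shared by either pair, so the paralog counts given below rest on reads that differ between the genes. Magoh is at chr4:107879755-107887424, plus strand, and Magohb at chr6:131284388-131293244, minus strand. Upf3a is at chr8:13785615-13799193, plus strand, and Upf3b at chrX:37091678-37110322, minus strand. Upf1 is at chr8:70331525-70353278, minus strand, Upf2 at chr2:5951469-6056703, plus strand, Eif4a3 at chr11:119288363-119300089, minus strand and Rbm8a at chr3:96629933-96633791, plus strand. Casc3 is at chr11:98804905-98833814, plus strand, and Rnps1 at chr17:24414565-24425901, plus strand. The exons of Casc3 share 15 bases with Msl1 on the same strand, and reads there could be counted with either gene. Those of Magohb share 520 bases with Gm44958 on the same strand, which has no row in the table. Reads of Gm44958 there could be counted with Magohb.

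Because the Upf3a and Upf3b contrast is followed through every comparison, their promoters are shown as well (RefSeq, GRCm38.p6, 250 bases before to 50 after the gene start, written 5′ to 3′ on the gene strand). The first is that of Upf3a at chr8:13785365-13785664, plus strand, and the second that of Upf3b at chrX:37110273-37110572, minus strand. Capitals mark matches on either strand to TGACG (the CRE half-site), GGGCGG (the GC box) and CCAAT.
Upf3a promoter: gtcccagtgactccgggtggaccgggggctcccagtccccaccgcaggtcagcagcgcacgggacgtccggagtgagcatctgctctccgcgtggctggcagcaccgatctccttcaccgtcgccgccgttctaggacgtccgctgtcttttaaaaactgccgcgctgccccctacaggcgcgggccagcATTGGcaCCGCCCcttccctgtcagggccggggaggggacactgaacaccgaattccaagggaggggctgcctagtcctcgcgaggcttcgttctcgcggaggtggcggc
Upf3b promoter: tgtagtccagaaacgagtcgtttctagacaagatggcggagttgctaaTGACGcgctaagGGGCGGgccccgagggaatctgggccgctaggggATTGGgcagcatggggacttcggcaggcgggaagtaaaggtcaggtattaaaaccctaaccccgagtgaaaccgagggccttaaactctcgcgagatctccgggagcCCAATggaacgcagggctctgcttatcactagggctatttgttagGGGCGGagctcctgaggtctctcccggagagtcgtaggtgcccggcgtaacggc
Upf3a held 1 GC box and 1 CCAAT, and Upf3b held 1 CRE half-site, 2 GC boxes and 2 CCAAT. The half-site of the X-box, GTTGCC, was also searched on both strands and matched neither. Of 32851 promoters of the same length, 20.8% held TGACG, 35.7% GGGCGG, 37.4% CCAAT and 12.5% GTTGCC. These matches describe the letters of the windows and nothing about binding.

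The 12 libraries of Spc and RS held 38129415 to 49940226 counts each and the 7 of CB 3965541 to 16699210, so the CB values rest on fewer counts. Late spermatid markers (10 genes such as the protamines) took 2.25 to 2.79% of the counts in CTRL RS and 0.218 to 0.233% in cKO RS, and 0.171 to 0.43% in CTRL CB and 0.0282 to 0.0398% in cKO CB. Round spermatid markers took 0.407 to 0.424% in CTRL RS and 0.176 to 0.197% in cKO RS, and spermatocyte markers (9 genes with a row) 0.0529 to 0.0596% and 0.114 to 0.129%. In Spc the spermatocyte markers took 0.167 to 0.208% in CTRL and 0.204 to 0.23% in cKO, the round spermatid markers 0.145 to 0.212% and 0.103 to 0.129%, and the late spermatid markers 0.406 to 0.79% and 0.0468 to 0.147%. Leydig cell markers took 0.0129 to 0.0459% in CTRL Spc, 0.062 to 0.133% in cKO Spc, 0.000637 to 0.000727% in CTRL RS and 0.00361 to 0.0389% in cKO RS. Erythroid markers (5 genes) took 0.00158 to 0.00184% in CTRL RS and 0.0072 to 0.0277% in cKO RS, and Sertoli markers 0.000762 to 0.000963% and 0.00145 to 0.00436%. In Spc both lists were lower in cKO, erythroid markers at 0.000158 to 0.000353% against 0.00111 to 0.00223% and Sertoli markers at 0.00174 to 0.00334% against 0.00556 to 0.0141%. Macrophage markers took 0.0106 to 0.0119% in cKO Spc and 0.0129 to 0.0199% in CTRL Spc, and overlapped between genotypes in RS. Of the genes of these 7 lists, 1 (the Sertoli gene Fshr) was at 0 in every library of a group, cKO CB. Thus the cKO RS fraction carried fewer spermatid counts and more spermatocyte, Leydig, Sertoli and erythroid counts than the CTRL RS fraction, and the part of this in the differences below was not tested. In bulk RNA, fewer cells of a type and less RNA per cell cannot be told apart. The whole Smg6 gene did not check the labels, since a deletion of exon 9 can leave the other exons to be counted: its log2 fold change in cKO over CTRL was 0.22 in Spc, 0.049 in RS and -0.058 in CB, and none passed the test. The RS value was 0.61 and called under library size scaling (adjusted p = 0.00419).

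To compare genes with each other, TMM-scaled CPM were divided by the exon length of each gene in kb (CPM per kb). That length joined the exons of all annotated transcripts. For Upf3a it was 5865 bases. Its transcript ENSMUST00000043767 has 2057 bases and held nearly the counts of the gene (10492 and 10458 in cKO Spc). For Upf1 both lengths were 4618 bases. CPM per kb thus understated Upf3a against Upf1, and the orders below hold for this divisor only. In CTRL Spc, Upf3a (41.7 ± 2.14 CPM per kb), Upf1 (41.3 ± 7.20) and Eif4a3 (33.7 ± 1.17) stood highest. Neighbours among these overlapped in their library values. Casc3 (19.0 ± 2.32), Upf2 (15.8 ± 0.280), Magoh (13.7 ± 0.432), Rnps1 (11.9 ± 1.39) and Rbm8a (7.85 ± 0.909) followed in that order without overlap. Magohb (2.78 ± 0.330) and Upf3b (2.57 ± 0.0946) were lowest and overlapped each other. The ends of the order were therefore held by the paralogs Upf3a and Upf3b.

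In CTRL RS, Upf3a stood alone at the top with 57.1 ± 3.80 CPM per kb, above Eif4a3 (27.2 ± 1.44) and Upf2 (19.8 ± 0.551). Magoh (9.97 ± 1.37) and Upf1 (9.49 ± 1.10) overlapped in the middle. Below them came Upf3b (6.83 ± 0.432) and Casc3 (4.98 ± 0.279), then the overlapping pair Rnps1 (3.11 ± 0.177) and Rbm8a (3.06 ± 0.159), and last Magohb (2.17 ± 0.249). On this scale, which understated Upf3a, the order was different in cKO RS. Upf2 (46.5 ± 3.18 CPM per kb) and Upf1 (42.7 ± 3.65) overlapped at the top, and Eif4a3 (33.2 ± 0.0656) and Upf3a (31.5 ± 3.76) overlapped next. Magoh (14.1 ± 1.72) and Casc3 (11.4 ± 1.25) came after them, and Upf3b, Rnps1, Magohb and Rbm8a, between 4.97 and 5.84, each overlapped its neighbour. In cKO Spc, Upf1 led on this scale with 70.5 ± 4.08 CPM per kb and Upf3b was again last (2.48 ± 0.405). Upf3a had 38.0 ± 2.40 by its long divisor, which does not rank it against Upf1.

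The CB libraries were made without polyA selection and scaled on their own, so that levels are compared within CB only. By the exon length used, which understated Upf3a in CB as well, Upf1 was highest in CTRL CB (28.1 ± 2.35 CPM per kb). Upf2 (23.8 ± 1.19) and Upf3a (22.1 ± 8.51) came next. Upf3a overlapped both of them, with its highest library at 34.0. In cKO CB the first 3 were Upf1 (57.9 ± 5.45), Upf3a (44.7 ± 20.2) and Upf2 (28.5 ± 2.24), and Upf1 and Upf3a overlapped.

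**Figure D1:**
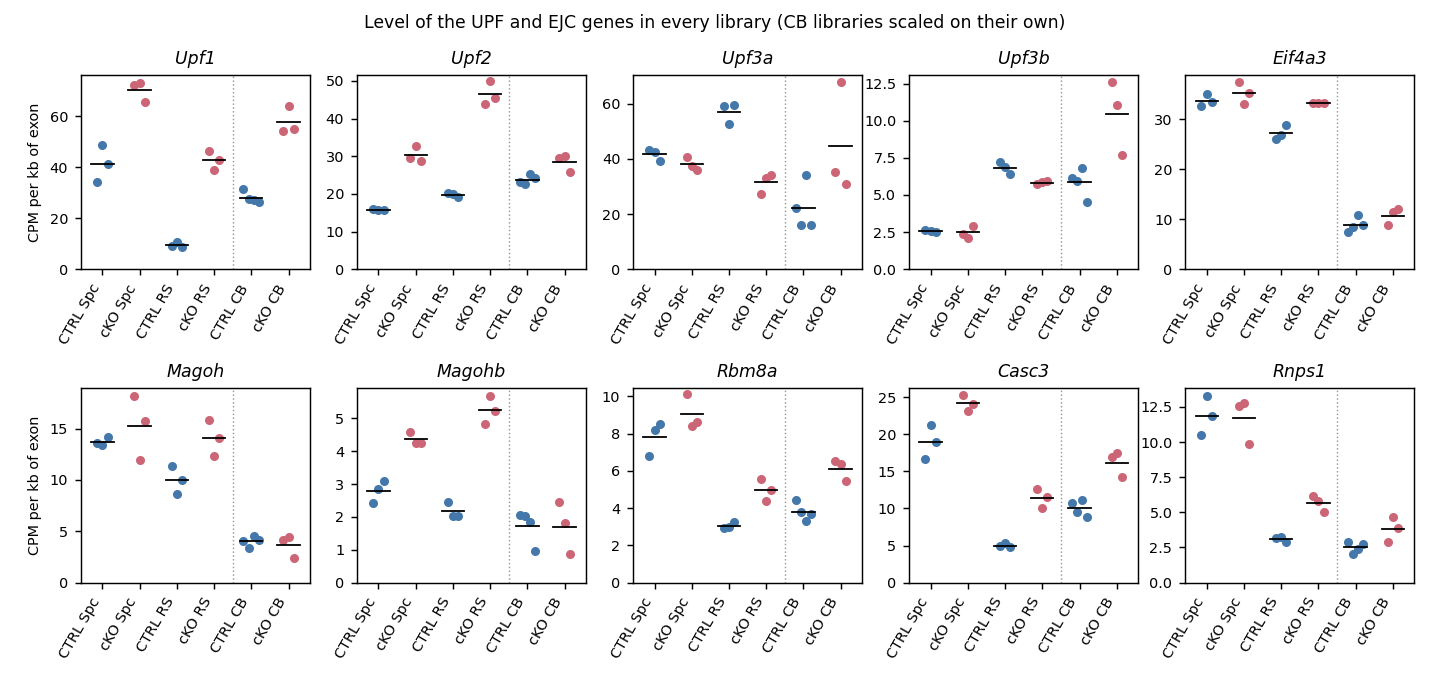
Level of each of the 10 genes in every library, in CPM per kb of exon, from 0 on a linear axis with its own range in each panel. Points are libraries, horizontal bars are group means, blue is CTRL and red is cKO, and the dotted line separates the CB libraries, which were scaled on their own. Upf1 shows the low CTRL RS group at 9.49 beside 42.7 in cKO RS, and Upf3a the opposite order, 57.1 beside 31.5.

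In Spc, the RNAs of the helicase UPF1, its activator UPF2 and the EJC core protein MAGOHB were higher in cKO than in CTRL, by 1.46 to 1.79 times, and none of the 10 was lower. A gene was called where its adjusted p was at most 0.05 over all 18323 rows tested (genes and transposable elements), and 26.2% of those rows were called, with 13.3% called higher. The 3 of 10 called higher stand against that 13.3%. The median log2 fold change was 0.078 over the 10 genes and -0.0085 over all rows. At an unadjusted p under 0.05, Upf3a was the 1 gene of the set that was lower, and DESeq2 called none lower. By the second rule of the study, which also asks for a log2 fold change of 1.5 or more in either direction, none of the 10 was called, against 3.27% of rows higher and 4.84% lower.

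Among the UPF factors, Upf2 changed most. Its normalised read counts (TMM-scaled within the comparison) were 7415, 8512 and 7427 in cKO Spc and 4504, 4272 and 4280 in CTRL Spc. All 3 cKO libraries lay above all 3 CTRL libraries, which differed little from each other. The means were 7785 ± 630.3 and 4352 ± 132, a log2 fold change of 0.84 (SE 0.0851, 1.79-fold, adjusted p = 0.00155, edgeR quasi-likelihood test, Benjamini-Hochberg). Upf1 counts were 15385, 16074 and 14350 in cKO Spc and 8068, 11205 and 9496 in CTRL Spc. The groups did not overlap, although the CTRL libraries spread more widely than for Upf2. The log2 fold change of Upf1 was 0.67 (SE 0.123, 1.59-fold, adjusted p = 0.0103). Upf3a, the more abundant of the 2 UPF3 paralogs, was at 10970, 10420 and 9983 in cKO Spc and 12956, 12440 and 11509 in CTRL Spc. The cKO libraries were all below the CTRL libraries, but the log2 fold change of -0.23 missed the threshold (adjusted p = 0.0591). For Upf3b the groups overlapped, with 466 ± 77.2 in cKO and 517 ± 24.9 in CTRL (log2 fold change -0.15, adjusted p = 0.539).

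Of the EJC genes, only Magohb was called. Its counts were 363, 348 and 345 in cKO Spc and 213, 243 and 265 in CTRL Spc, with no overlap, and the log2 fold change was 0.55 (SE 0.164, 1.46-fold, adjusted p = 0.0456). That call did not hold without any 1 of the 6 libraries, where the adjusted p reached 0.108. Its paralog Magoh, encoding the other form of the same core subunit, had 552 ± 104 in cKO and 532 ± 16.3 in CTRL, and the log2 fold change of 0.054 was not called (adjusted p = 0.843). Casc3, whose protein binds the core, was at 4997, 4743 and 4912 in cKO Spc and 3662, 4578 and 4096 in CTRL Spc. The groups did not overlap, as was the case for 45.8% of all rows, and the log2 fold change of 0.25 was not called (adjusted p = 0.104). The log2 fold changes of Eif4a3, Rbm8a and Rnps1 lay between -0.12 and 0.10, with overlapping groups and adjusted p of 0.544 to 0.781.

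In RS the differences were larger and reached nearly the whole set. Upf1, Upf2, all 4 EJC core genes, Casc3 and Rnps1 were higher in cKO, by 1.23 to 4.53 times, and Upf3a was lower by 1.80 times. The 8 called higher and the 1 called lower stand against 38.0% and 33.3% of the 18504 rows tested, so that many other rows were also called in this comparison. The median log2 fold change was 0.79 over the 10 genes and 0.095 over all rows. Upf1 alone also passed the second rule, against 15.1% of rows higher and 10.5% lower. In 76.0% of rows the 2 groups did not overlap, as in all 10 genes. Scaling by library size instead of TMM moved the median of all rows from 0.095 to 0.65 and the median of the 10 genes to 1.35. The share of called rows that were higher then rose from 53.3% to 75.6%.

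Upf1 gave the largest difference of the set. Its counts were 8976, 7547 and 8348 in cKO RS and 1771, 2062 and 1653 in CTRL RS. Every cKO library held several times the count of any CTRL library. The means were 8291 ± 716 and 1829 ± 210.4, a log2 fold change of 2.18 (SE 0.107, 4.53-fold, adjusted p = 1.14e-06, edgeR quasi-likelihood test, Benjamini-Hochberg). Upf2 was at 10096, 11493 and 10488 in cKO RS and 4614, 4570 and 4380 in CTRL RS. Both groups were tight and far apart, with a log2 fold change of 1.24 (SE 0.0714, 2.36-fold, adjusted p = 2.49e-06).

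The UPF3 paralogs did not follow Upf1 and Upf2. Upf3a counts were 6714, 8111 and 8469 in cKO RS and 14442, 12889 and 14578 in CTRL RS. Here the order was turned, and all cKO libraries were below all CTRL libraries. The log2 fold change of Upf3a was -0.85 (SE 0.0989, 1.80-fold lower, adjusted p = 0.000126) and stayed negative under library size scaling (-0.29, adjusted p = 0.0116). Upf3b, the X-linked paralog, was at 961, 986 and 998 in cKO RS and 1209, 1145 and 1065 in CTRL RS. The cKO libraries were lower without overlap, yet the log2 fold change of -0.22 (SE 0.0950) was not called (adjusted p = 0.0712), and it turned to 0.34 under library size scaling (adjusted p = 0.017). With DESeq2 it was called lower (-0.28, adjusted p = 0.0199), so no direction is given for Upf3b.

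All 4 genes of the EJC core were higher in cKO RS. Magohb changed most of them, with 348, 411 and 379 in cKO RS and 177, 145 and 146 in CTRL RS. The lowest cKO library lay well above the highest CTRL library, and the log2 fold change was 1.28 (SE 0.164, 2.43-fold, adjusted p = 0.000207). Magoh, whose protein is nearly the same as that of Magohb, was at 512, 400.1 and 458 in cKO RS and 365, 276 and 320.0 in CTRL RS. Its groups stood close to each other, and the log2 fold change of 0.51 (SE 0.164, adjusted p = 0.0215) missed the threshold without CTRL RS 2 (adjusted p = 0.0808) or CTRL RS 3 (adjusted p = 0.0621). Rbm8a, encoding the partner of MAGOH in the core, was at 756, 591 and 671 in cKO RS and 397, 399.9 and 436 in CTRL RS. The groups were apart, and the log2 fold change was 0.71 (SE 0.135, adjusted p = 0.0018). Eif4a3, the ATPase that clamps the RNA, rose least, from 2412 ± 128 in CTRL to 2964 ± 5.63 in cKO (log2 fold change 0.30, SE 0.0745, adjusted p = 0.00714).

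The EJC-associated genes differed more than Eif4a3. Casc3 was at 2283, 1831 and 2096 in cKO RS and 875, 951 and 858 in CTRL RS, and Rnps1 at 1326, 1251 and 1079 in cKO RS and 674, 699.9 and 626 in CTRL RS. For both genes every cKO library was above every CTRL library. The log2 fold change was 1.21 for Casc3 (SE 0.109, 2.31-fold, adjusted p = 2.98e-05) and 0.87 for Rnps1 (SE 0.116, 1.83-fold, adjusted p = 0.000259).

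In CB RNA, Upf1, both UPF3 paralogs, Rbm8a and Casc3 were higher in cKO and none of the 10 was lower. The 5 called higher stand against 15.4% of the 15079 rows tested, and 17.7% of rows were called lower. The median log2 fold change was 0.63 over the 10 genes and 0.014 over all rows. Under library size scaling, the median of all rows was -0.12 and that of the 10 genes 0.47, 3 of the 10 were called, and the share of called rows that were higher went from 46.5% to 35.8%. These libraries also differed in the late spermatid markers given above and in round spermatid markers, which took 0.0196 to 0.0241% of the counts in cKO CB and 0.0475 to 0.0704% in CTRL CB. Leydig markers took 0.00325 to 0.0322% and 0.00118 to 0.0041%, and Sertoli markers 0.000987 to 0.00158% and 0.000689 to 0.00092%. Macrophage markers took 0.00682 to 0.0101% in cKO CB and 0.0117 to 0.0139% in CTRL CB. The part of these in the CB differences was not tested. In addition, 2 of the 4 CTRL libraries carry another name prefix in the table than the other 5 libraries. Without those 2, 4 of the 10 were called, all higher.

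Upf1 was at 2327, 2748 and 2363 in cKO CB and 1352, 1181, 1162 and 1125 in CTRL CB. All cKO libraries exceeded all CTRL libraries, and the log2 fold change was 1.04 (SE 0.170, 2.06-fold, adjusted p = 0.000717, edgeR quasi-likelihood test, Benjamini-Hochberg). Upf3b was at 467, 411 and 285 in cKO CB and 228, 222, 252 and 168 in CTRL CB. The groups did not overlap, although the lowest cKO library came close to the highest CTRL library, and the log2 fold change was 0.84 (SE 0.208, 1.78-fold, adjusted p = 0.00852). Upf3a, lower in cKO RS, was at 1911, 3697 and 1687 in cKO CB and 1212, 868, 1853 and 874 in CTRL CB. The groups overlapped and 1 cKO library, cKO CB 3, stood far above the others. The log2 fold change of Upf3a was 1.02 (SE 0.310, adjusted p = 0.0234) and 0.63 without that library (adjusted p = 0.126). It was also not called without CTRL CB 1, 2 or 5 (adjusted p = 0.0581, 0.0644 and 0.0689). Upf2 was at 1501, 1526 and 1317 in cKO CB and 1174, 1147, 1281 and 1238 in CTRL CB. Its groups did not overlap, as for 37.2% of all rows, and the log2 fold change of 0.26 was not called (adjusted p = 0.236).

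Of the EJC genes, Casc3 was at 676, 699 and 566 in cKO CB and 429.9, 378, 443 and 351 in CTRL CB. The groups were apart, and the log2 fold change was 0.69 (SE 0.165, adjusted p = 0.00671). It was 0.56 and not called under library size scaling (adjusted p = 0.102). Rbm8a was at 194, 189.7 and 163 in cKO CB and 132, 113, 99.3 and 111 in CTRL CB. Again no cKO library fell to the CTRL range, and the log2 fold change was 0.67 (SE 0.186, adjusted p = 0.015). It was not called under library size scaling (adjusted p = 0.162) or without the 2 CTRL libraries of another prefix (adjusted p = 0.121). Rnps1 was at 139, 221 and 185 in cKO CB and 139, 96.5, 113 and 131 in CTRL CB. The lowest cKO library was barely above the highest CTRL library, and the log2 fold change of 0.59 fell just short (adjusted p = 0.0506), whereas DESeq2 called it (adjusted p = 0.0417). Eif4a3, Magoh and Magohb had log2 fold changes of 0.28, -0.19 and -0.030 with overlapping groups (adjusted p = 0.285, 0.688 and 0.964). Magohb had only 10 to 41 raw counts in a CB library, so a difference of the size seen in RS could not be judged as precisely there.

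**Figure D2:**
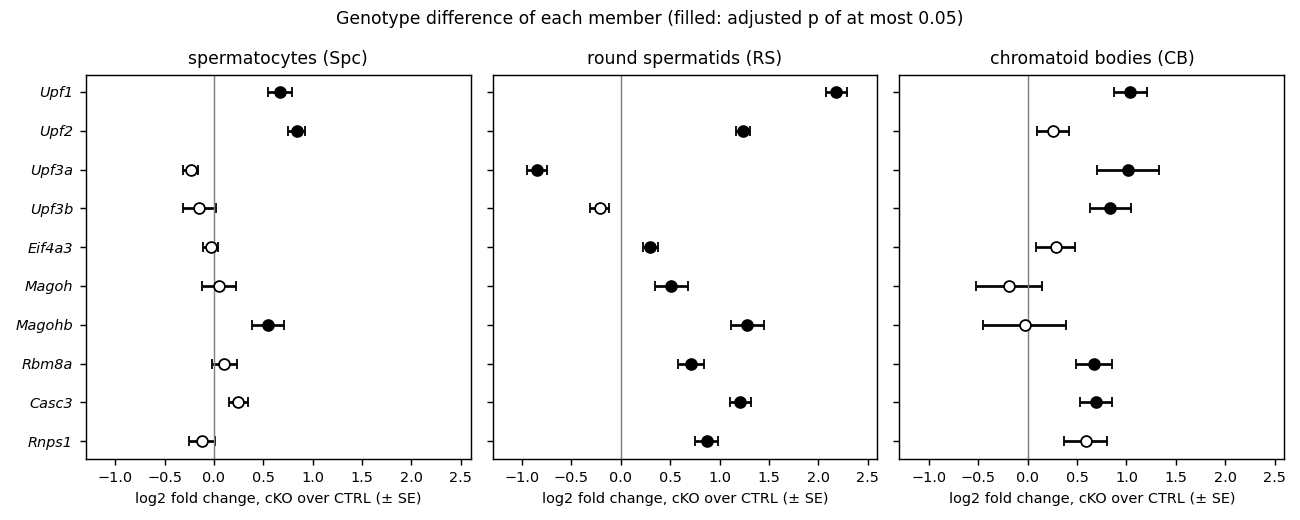
Log2 fold change of cKO over CTRL (horizontal axis, points with their SE) for each of the 10 genes in Spc, RS and CB, with filled points at an adjusted p of at most 0.05. Upf1 reaches 2.18 in RS, and Upf3a lies at -0.85 in RS but at 1.02 in CB, the latter 0.63 and not called without cKO CB 3. Upf3b, open at -0.22 in RS, turned to 0.34 under library size scaling.

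The next comparison follows the genes from Spc to RS in CTRL mice, where the same normalised counts of the CTRL libraries enter as in the genotype comparisons, rescaled. The tables name the RS libraries with another trimming label than the Spc libraries, a difference that goes with the stage. The whole set moved: Upf1, Casc3, Rnps1, Rbm8a, Magoh, Magohb and Eif4a3 were lower in RS, and Upf3b, Upf3a and Upf2 higher. These 7 lower and 3 higher stand against 38.9% and 36.1% of the 18050 rows tested, a comparison in which most rows were called. The median log2 fold change was -0.53 over the 10 genes and -0.053 over all rows. Upf1, Casc3 and Rnps1 also passed the second rule, against 16.6% of rows lower and 15.9% higher. In 80.0% of rows the 2 stages did not overlap. Under library size scaling the median of all rows was -0.47 and that of the 10 genes -0.95, and the share of called rows that were higher went from 48.1% to 32.7%. Under that scaling Upf2 was called lower (-0.21, adjusted p = 0.0363) and Upf3a had -0.084 (adjusted p = 0.295), so that of the 3 genes called higher only Upf3b kept its direction under both.

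Upf1 counts in CTRL mice were 1711, 2037 and 1586 in RS and 7015, 9812 and 8303 in Spc. The RS libraries were all far lower, with a log2 fold change of -2.24 (SE 0.153, 4.71-fold lower, adjusted p = 5.39e-05, edgeR quasi-likelihood test, Benjamini-Hochberg). Casc3 was at 845, 939 and 824 in RS and 3184, 4009 and 3581 in Spc, and Rnps1 at 651, 691 and 601 and 2394, 2982 and 2659. Both genes of the EJC periphery were thus lower in RS without overlap, with log2 fold changes of -2.05 (SE 0.113, adjusted p = 2.92e-05) and -2.05 (SE 0.113, adjusted p = 2.93e-05). In the core, Rbm8a fell most, from 1108 ± 119.5 in Spc to 399 ± 17.6 in RS (log2 fold change -1.47, adjusted p = 9.17e-05). Magoh, Magohb and Eif4a3 had log2 fold changes of -0.58, -0.47 and -0.42 (adjusted p = 0.00709, 0.0391 and 0.00159). The call of Magohb was lost without CTRL RS 2 or 3 or CTRL Spc 2 or 3, where its adjusted p reached 0.131.

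Upf3b moved against Upf1, with 1168, 1131 and 1022 in RS and 473, 447 and 433 in Spc. Every RS library held more than any Spc library, and the log2 fold change was 1.29 (SE 0.106, 2.45-fold, adjusted p = 9.17e-05). Upf3a was at 13952, 12731 and 13988 in RS and 11264, 10894 and 10063 in Spc. Its RS libraries were higher without overlap, but by a smaller step of 0.34 on the log2 scale (SE 0.0788, adjusted p = 0.00596). Upf2 differed least, with 4391 ± 166 in RS and 3800 ± 101 in Spc (log2 fold change 0.21, adjusted p = 0.0295), and its call was lost in 6 of the 11 alternatives with a test.

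In cKO mice the stage differences of most genes were smaller than in CTRL. The 2 called higher in RS (Upf3b and Upf2) and the 5 called lower (Upf1, Casc3, Rnps1, Rbm8a and Upf3a) stand against 18.1% and 25.4% of the 18712 rows tested, 57.4% of which had no overlap between stages. The median log2 fold change was -0.23 over the 10 genes and 0.0030 over all rows, and library size scaling changed these to -0.086 and 0.15 and the share of called rows that were higher from 41.5% to 55.7%. Upf1 was at 9919, 8642 and 9454 in cKO RS and 15958, 16464 and 15147 in cKO Spc. The RS libraries were lower without overlap, by -0.76 on the log2 scale (SE 0.0770, 1.70-fold lower, adjusted p = 0.000415). Upf3b was at 1062, 1129 and 1130 in cKO RS and 455, 416 and 584 in cKO Spc. It was higher in RS, as in CTRL, and its log2 fold change was 1.19 (SE 0.156, adjusted p = 0.00113).

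Casc3, Rnps1 and Rbm8a had log2 fold changes of -1.12, -1.09 and -0.90 in cKO (adjusted p = 0.000241, 0.000682 and 0.00148). Upf2 rose by 0.58 (SE 0.0888, adjusted p = 0.00207). Upf3a, higher in RS than in Spc in CTRL, had -0.31 in cKO (adjusted p = 0.0472), a call lost in all 11 alternatives with a test. Eif4a3, Magoh and Magohb were not called in cKO, with -0.13, -0.16 and 0.23 (adjusted p = 0.224, 0.51 and 0.252).

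**Figure D3:**
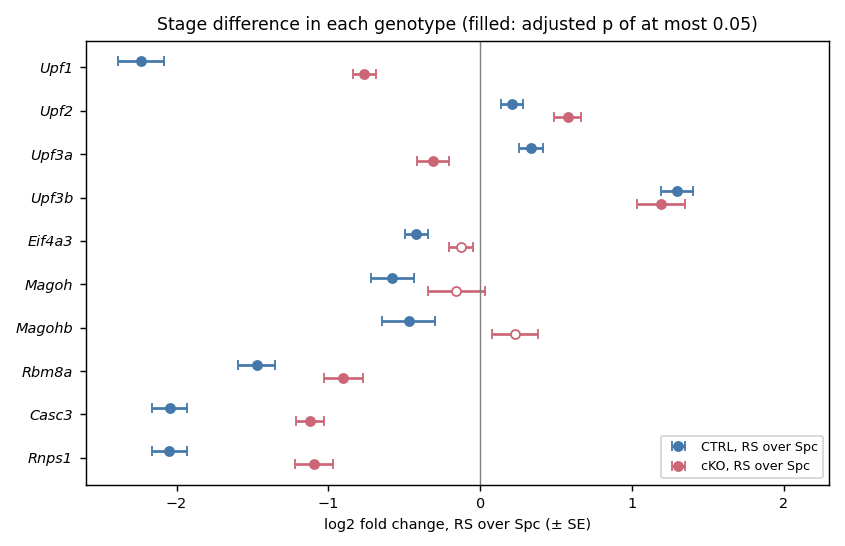
Log2 fold change of RS over Spc (horizontal axis, points with their SE) for each of the 10 genes in CTRL (blue) and in cKO (red), with filled points at an adjusted p of at most 0.05. Upf1 moves from -2.24 in CTRL to -0.76 in cKO, whereas Upf3b stays near its CTRL value (1.29 and 1.19); under library size scaling the CTRL points of Upf2 and Upf3a turned to -0.21 and -0.084 and the cKO point of Eif4a3 to 0.020.

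Whether the genotype difference itself differed between RS and Spc was tested as an interaction over the 12 libraries, and its value is the log2 fold change (cKO over CTRL) in RS minus that in Spc. Upf1 (1.40, SE 0.179, adjusted p = 0.000456), Rnps1 (0.88, adjusted p = 0.0037), Casc3 (0.85, adjusted p = 0.00196), Magohb (0.62, adjusted p = 0.036), Rbm8a (0.50, adjusted p = 0.0462) and Upf2 (0.29, adjusted p = 0.0443) had a more positive difference in RS. Upf3a had a more negative one (-0.73, SE 0.134, adjusted p = 0.00217). The 6 higher and 1 lower stand against 19.4% and 21.3% of the 19192 rows tested. The median was 0.42 over the 10 genes and -0.12 over all rows. Under library size scaling these became 1.07 and 0.52, the share of called rows that were higher went from 47.6% to 93.6%, and Upf3a was no longer called (-0.082, adjusted p = 0.577). The calls of Upf2, Rbm8a and Magohb were lost in 11, 9 and 8 of the 17 alternatives with a test. Without cKO Spc 3, CTRL RS 2 or 3, or CTRL Spc 2 or 3, only 4 of the 10 genes were called. Eif4a3 (0.22, adjusted p = 0.116), Magoh (0.34, adjusted p = 0.264) and Upf3b (-0.18, adjusted p = 0.407) were not called. Under library size scaling Eif4a3 (0.86, adjusted p = 0.000109) and Magoh (0.99, adjusted p = 0.00523) were called, and Upf3b had 0.46.

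The contrast of Upf3a and Upf3b was taken as the log2 ratio of their counts within a library, in which depth and scaling cancel. In Spc the ratios were 4.57, 4.61 and 4.54 in CTRL and 4.64, 4.68 and 4.17 in cKO. Apart from the lower value of cKO Spc 3, the libraries were close to each other and the groups overlapped. The means were 4.57 ± 0.0337 and 4.50 ± 0.283, so that CTRL Spc held 23.8 counts of Upf3a for each count of Upf3b, with no correction for length. The difference of -0.073 had p = 1 in a two-sided exact permutation test over the libraries, in which 3 against 3 cannot go below 0.1.

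In RS the ratios were 3.58, 3.49 and 3.77 in CTRL and 2.80, 3.04 and 3.08 in cKO. Every cKO library was below every CTRL library. The means were 3.62 ± 0.144 and 2.98 ± 0.151, or 12.3 and 7.87 counts of Upf3a for each of Upf3b, and the difference was -0.64 (p = 0.1, exact permutation test, the smallest value possible). Between stages the ratio was lower in RS, with differences of -0.96 in CTRL and -1.52 in cKO (each p = 0.1, exact permutation test). With libraries permuted between stages within each genotype, the mean difference of -1.24 had p = 0.005 (exact permutation test), the smallest value that the 400 regroupings allow. The RS libraries thus held relatively more Upf3b in both genotypes.

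In CB the ratios were 2.41, 1.97, 2.88 and 2.38 in CTRL and 2.03, 3.17 and 2.57 in cKO. The groups overlapped widely, with means of 2.41 ± 0.372 and 2.59 ± 0.569, and the difference of 0.18 had p = 0.6 (exact permutation test over 35 regroupings, smallest value possible 0.0286). Without cKO CB 3 it was -0.11. Upf3b was higher in cKO CB, and Upf3a was called higher with overlapping groups, a call lost without cKO CB 3. At this spread no shift between the paralogs could be seen. The other pair is given with no test. Magoh and Magohb had a mean log2 ratio of 1.15 ± 0.151 in CTRL Spc and 0.63 ± 0.260 in cKO Spc, and of 1.04 ± 0.101 in CTRL RS and 0.26 ± 0.297 in cKO RS. The mean shifted toward Magohb in cKO in both cell types. In CB the means were 0.12 ± 0.604 in CTRL and 0.015 ± 0.383 in cKO, on few counts.

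**Figure D4:**
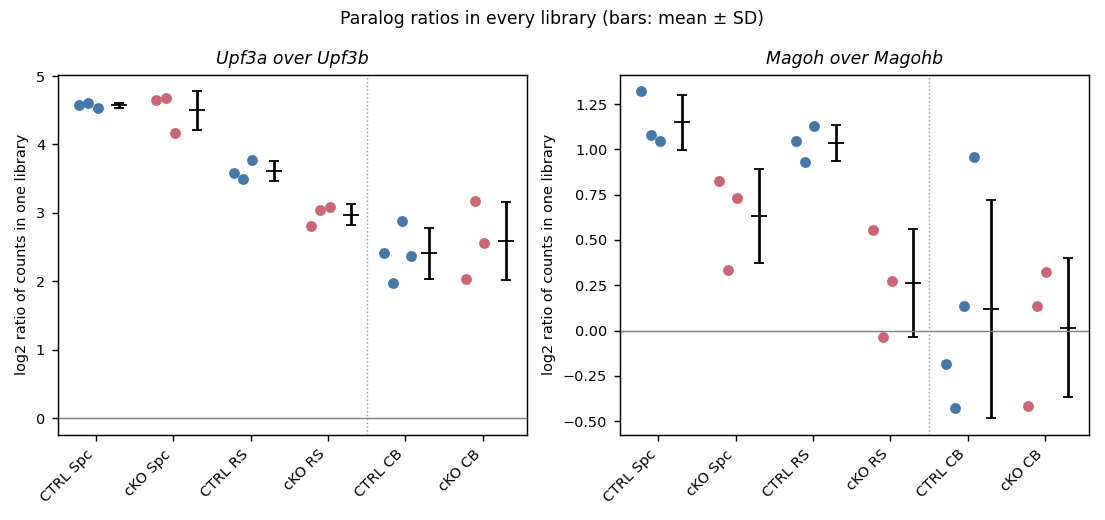
Log2 ratio of Upf3a to Upf3b counts (left) and of Magoh to Magohb counts (right) in each library (blue, CTRL; red, cKO), with the group mean and SD beside the points. The Upf3a to Upf3b ratio steps down from 4.57 in CTRL Spc to 3.62 in CTRL RS and 2.98 in cKO RS, and the CB groups overlap.

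The genes were also followed by annotated transcript in the transcript tables, which count the same libraries. Of 47 GENCODE transcripts of the 10 genes, 36 were in the tables. Reads in exons shared by several transcripts had been divided equally among them, so transcripts of 1 gene are not independent. In Spc 8 of 36 were called higher and 0 lower, against 16.1% higher and 28.6% in either direction of 57631 transcripts tested. The 8 were those of Upf1, 3 of Upf2 and 4 of Magohb. Leaving out any 1 of the 6 Spc libraries reduced the 8 to 4 or 5. In RS 31 of 35 tested were called higher and 1 lower, against 38.9% and 36.0% of 57133. In CB 15 of 20 were called higher and 0 lower, against 17.8% and 18.1% of 30623. Under library size scaling 0 of the CB transcripts were called. Without cKO CB 3, CTRL CB 2 or CTRL CB 5 the number was as low as 9.

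For Upf1 the single transcript in the tables (ENSMUST00000075666, protein coding) was at 9060, 7552 and 8427 normalised counts in cKO RS and 1751, 2061 and 1622 in CTRL RS, and its log2 fold change was 2.20 (SE 0.110, adjusted p = 4.22e-06). It followed the gene, without overlap, and had 1.20 in CB. The 2 protein-coding transcripts of Upf2 (ENSMUST00000060092 and ENSMUST00000128200) rose alike in RS, by 1.28 and 1.25, and in Spc, by 0.87 and 0.80. The processed transcript of Upf2 (ENSMUST00000144901) rose by 0.77 in Spc and 1.00 in RS. The transcript of Upf3a (ENSMUST00000043767) was the 1 called lower in RS, with -0.82 (SE 0.0963, adjusted p = 0.000206), and was higher in CB by 1.18 with overlapping groups. Without cKO CB 3 its CB value was 0.70 (adjusted p = 0.121), and it was also not called without CTRL CB 1, 2 or 5 or under library size scaling (0.74, adjusted p = 0.185). Both protein-coding transcripts of Upf3b were higher in CB, by 0.89 (ENSMUST00000076265) and 1.18 (ENSMUST00000130324), and neither was called in RS (-0.16 and -0.20).

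Only Magohb has transcripts that the annotation marks as NMD targets, 3 in number. All 3 were called higher in Spc, at 0.54 to 0.69, and in RS, at 1.26 to 1.36, and none passed the filter in CB. Of their Spc calls, that of ENSMUST00000172883 was lost without any 1 of the 6 libraries, and those of ENSMUST00000173198 and ENSMUST00000173332 in 5 of these 6 fits each, with adjusted p of up to 0.0943. Of the protein-coding transcripts of Magohb, ENSMUST00000032307 had 0.57 in Spc and 1.32 in RS, both called. The other, ENSMUST00000173837, had 0.47 in Spc, not called, and 1.27 in RS, called. Since these forms share exons and thus divided the same reads, their values do not show whether the NMD-marked and the coding forms moved alike. The 2 retained-intron transcripts of Magohb had 0.36 and 0.42 in Spc, neither called, and 1.13 and 1.18 in RS, both called. Among the transcripts of Casc3 in RS, ENSMUST00000017384 had 0.70 and ENSMUST00000169695 1.22. All 6 transcripts of Eif4a3 were called higher in RS, at 0.25 to 0.37.

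**Figure D5:**
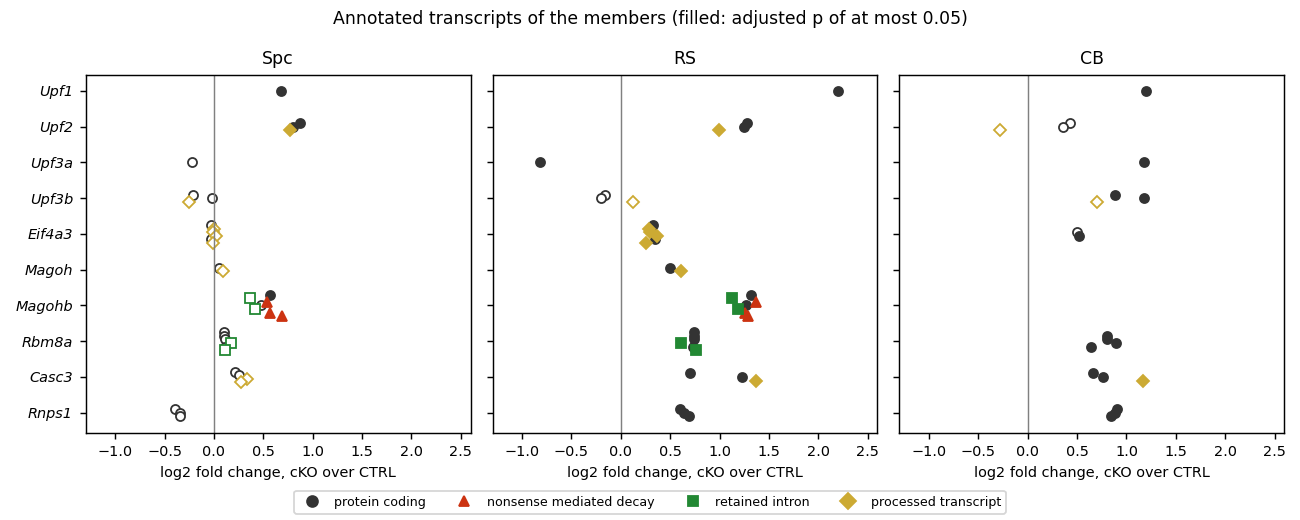
Log2 fold change of cKO over CTRL (horizontal axis) for each tested transcript of the 10 genes in Spc, RS and CB, with filled symbols at an adjusted p of at most 0.05 and the symbol giving the annotated class. The 3 NMD-marked transcripts of Magohb (triangles), which share reads with its other transcripts, lie among them in Spc and RS, and Upf3a lies at -0.82 in RS and 1.18 in CB, the latter 0.70 and not called without cKO CB 3.

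The other genes of the pathway, in 2 lists, did not all move with the 10. The first list holds 15 other NMD factors, such as the kinase SMG1 and its partners SMG8 and SMG9 and the decay factor SMG5. The second holds 10 factors that load, bind or recycle the EJC, 8 of which had a row. In Spc 3 of 15 NMD factors were higher and 0 lower (Smg9 0.58, Nbas 0.38 and Smg1 0.35, log2 fold changes of cKO over CTRL). The call of Smg9 was lost without cKO Spc 1 or 3 or CTRL Spc 1 or 2 (adjusted p = 0.0532 to 0.077), and that of Smg1 without CTRL Spc 3 (adjusted p = 0.0516). Of the EJC-binding factors 2 of 8 were higher (Srrm1 0.45 and Ddx39b 0.32). That count of 2 was 0 without cKO Spc 1 or CTRL Spc 3 and 1 without any other library, under library size scaling, with no filter or with a replicate block, and the call of Ddx39b was lost in each of these. In RS 5 NMD factors were higher and 5 lower, led by Smg9 (1.79), Smg8 (0.95) and Smg1 (0.87), with a list median of -0.091. Of the EJC-binding factors 5 were higher and 2 lower, led by Alyref (1.43), Srrm1 (1.34) and Ddx39b (0.96), which serve mRNA splicing and export, with a median of 0.52. In CB 1 NMD factor was higher (Smg9, 0.88) and 2 lower (among them Etf1, -0.73), and 4 EJC-binding factors were higher (the largest Pnn, 0.95) and 0 lower. Without cKO CB 4, Smg9 had 0.41 (adjusted p = 0.13) and Etf1 -0.55 (adjusted p = 0.0639), and Smg9 was also not called without CTRL CB 2 or 5. The 4 EJC-binding factors became 2 without cKO CB 4 or any 1 CTRL CB library, without the 2 of another prefix, under library size scaling and with no filter. These counts stand against the same percentages of rows as those of the 10 genes.

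From Spc to RS in CTRL, where 36.1% of all rows were called higher and 38.9% lower, 3 NMD factors were higher and 7 lower (Smg8 -1.61, Smg9 -1.53 and Pnrc2 -1.32 the largest). Of the EJC-binding factors 1 was higher and 5 lower, led by Srrm1 (-2.20), Alyref (-2.06) and Pnn (-1.81). In cKO, against 18.1% of rows higher and 25.4% lower, 2 NMD factors were higher and 5 lower (1 and 2 without cKO RS 1 or cKO Spc 1, 1 and 3 without cKO RS 2), and 0 EJC-binding factors higher and 6 lower (Srrm1 -1.34, Pnn -1.32 and Ddx39b -1.08). The interaction, against 19.4% of rows higher and 21.3% lower, was called for 6 NMD factors, 3 in each direction, and for 4 EJC-binding factors, 3 higher and 1 lower, with the largest values at Smg9 (1.09, not called without cKO Spc 2 or CTRL Spc 3) and Alyref (1.00). With library size scaling 7 EJC-binding factors were called, all higher.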

How the data were processed

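Polyadenylated RNA of Spc and RS (2 × 75 bp) and total RNA of isolated CB, with no rRNA removal and no fragmentation (paired 150 bp reads), had been sequenced from strand-specific libraries. The authors trimmed reads with cutadapt 2.8, aligned them with STAR (2.7.1a in the submitters' processing notes) to GRCm38, and deposited raw read counts per gene and transposable element from TEtranscripts, set to the reverse strand. They also deposited expected counts per transcript from featureCounts 2.0.1, which per the file headers divided reads among overlapping transcripts, so that these are not whole numbers; they were rounded here.

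Counts were tested with edgeR 4.0.16 (quasi-likelihood, TMM, two-sided, R 4.3.3) on the groups compared only, over all rows with at least 10 counts in 3 libraries (20 for transcripts), with Benjamini-Hochberg adjustment over all rows tested and an adjusted p of at most 0.05 as threshold. The study used DESeq2, which served here as an alternative (1.42.0). Other alternatives were library size scaling, log2 fold changes taken relative to the median of all genes tested (values with no test), no filter on low counts, leaving out each library, a replicate block, transcript counts summed per gene and, in CB, leaving out 2 CTRL libraries. The last 2 were chosen after seeing the data. Standard errors are the log2 fold change over the square root of the F statistic. Paralog ratios were tested with exact permutation tests. All 10 genes are named in every comparison, with at most 3 further genes per list, the largest by log2 fold change among those called; 1 gene that this rule names is not reported here. The genes and lists were chosen with earlier results of these data known. The test was tried on simulated data with 200 changed genes, equally many up and down and at a fixed dispersion. That trial did not cover comparisons in which most rows were called.

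Groups came from the sample labels. The table columns of CB carry numbers that differ from the labels (cKO 2, 3 and 4, CTRL 1, 2, 3 and 5), and CB libraries are named here by the column numbers. The labels call the Spc and RS libraries replicates, and nothing shows which mice entered each, so p-values measure the spread between these libraries. No pair of libraries of a group agreed within sampling noise. Sequence and coordinates are from GENCODE vM21 (GRCm38) and RefSeq (GRCm38.p6), which had a promoter window for 7 of the 10 genes, and 98% of the 110379 transcripts in the tables matched GENCODE. Small RNA libraries were not used.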

Additional observations from a re-analysis of the deposited data

Results flagged for a closer look

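For 7 of the 10 genes the difference between cKO and CTRL was itself different in RS and in Spc, by the interaction test of edgeR over the 12 libraries, where 19.4% of all rows were called higher and 21.3% lower. On the log2 scale, the difference in RS minus that in Spc was 1.40 for Upf1, 0.88 for Rnps1, 0.85 for Casc3, 0.62 for Magohb, 0.50 for Rbm8a, 0.29 for Upf2 and -0.73 for Upf3a. The calls of Upf2, Rbm8a and Magohb were lost in 11, 9 and 8 of the 17 alternatives with a test, that of Upf3a under library size scaling (-0.082, adjusted p = 0.577), and 4 genes were called without cKO Spc 3, CTRL RS 2 or 3, or CTRL Spc 2 or 3. In Upf1 both differences had the same sign (0.67 in Spc and 2.18 in RS), and so had those of Upf3a (-0.23 and -0.85), whereas Rnps1 had -0.12 in Spc, not called, and 0.87 in RS. The late spermatid markers, which moved with genotype and stage, took 0.406 to 0.79% of the counts in CTRL Spc, 0.0468 to 0.147% in cKO Spc, 2.25 to 2.79% in CTRL RS and 0.218 to 0.233% in cKO RS, and their part in these values was not tested. No gene of the set and neither paralog ratio had 1 library of the 4 CTRL CB libraries standing apart by the gap test of Dixon; the groups of 3 were not tested.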

How the results depend on the processing

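For single genes of the set, 691 values kept their direction and their side of the threshold, 70 lost the threshold, 7 passed it, 7 moved by more than the replicate spread and 15 changed sign. The number of the 10 genes called stayed within 1.5 times its value in Spc (2 to 2 without 1 library), RS (8 to 9) and both stage comparisons (8 to 10 in CTRL and 6 to 6 in cKO). In CB it was 3 under library size scaling and 4 to 6 without 1 library. The interaction gave 4 to 6 without 1 library, the lowest (3 higher, 1 lower) without cKO Spc 3, CTRL RS 2 or 3, or CTRL Spc 2 or 3. Transcripts called in CB numbered 0 under library size scaling (edgeR; 2 at an unadjusted p under 0.05), 8 with no filter and 9 to 15 without 1 library, the lowest without cKO CB 3, CTRL CB 2 or CTRL CB 5; those in Spc numbered 4 to 5 without any 1 library. The difference in the Upf3a to Upf3b ratio ranged from -0.11 to 0.46 in CB, negative without cKO CB 3, and from -0.16 to 0.090 in Spc, positive without cKO Spc 3. The cause of these changes was not tested.

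The sign changed under library size scaling for Upf2 (-0.21), Upf3a (-0.084) and Smg6 (-0.17) in the CTRL stage comparison, for Eif4a3 in the cKO one (0.020), for Upf3b in RS (0.34), and in the interaction for Upf3b (0.46), Smg6 (0.36) and Ipo13 (0.0091). With DESeq2 it changed for Smg6 in RS (-0.018), and without the 2 CTRL CB libraries for Magohb (0.15). Without 1 library it changed for values near 0 that were not called, whose ranges were -0.050 to 0.0059 (Eif4a3, Spc), -0.056 to 0.20 (Magoh, Spc), -0.19 to 9.31e-05 (Rnps1, Spc), -0.31 to 0.14 (Magoh, CB), -0.45 to 0.42 (Magohb, CB), -0.23 to 0.034 (Magoh, cKO stage), -0.10 to 0.065 (Smg6, CB) and -0.15 to 0.18 (Smg6, RS). Eif4a3 became called in the interaction with DESeq2 (adjusted p = 0.0291), and Rnps1 was not called there from transcript sums (adjusted p = 0.0539).

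Whether the replicate numbers pair the libraries was not settled. Same-number deviations correlated at -0.123 to 0.264 between genotypes in Spc and -0.155 to 0.0869 in RS. Between stages they correlated at -0.2 to -0.132 in CTRL and -0.0493 to 0.568 in cKO. Not every library correlated best with its own number, although cKO RS 2 (0.568) and cKO RS 3 (0.297) did so among the cKO Spc libraries. With 3 libraries in a group, these correlations cannot exclude pairing. With a replicate block, 2 of the 10 genes were called in Spc, 9 in RS, 8 and 6 between stages in CTRL and cKO and 5 in the interaction, and 5 transcripts in Spc and 30 in RS. For CB alone, no paired analysis was possible because the column numbers of the CB libraries do not match their labels. The CB libraries were the shallowest, and few counts of Magoh and Magohb limit what can be detected for these genes there.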
